A study of Mus musculus with 6 samples.

Results

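Genes of integrins, cadherins and leukocyte adhesion molecules were followed in the livers of mice injected with an adenovirus that overexpresses Chrna4, a subunit of the nicotinic acetylcholine receptor, against mice injected with vehicle. The genes were chosen by symbol alone: integrin alpha (Itga) and beta (Itgb) chains, numbered cadherins (Cdh) and Icam genes, Vcam1, the selectin genes and Selplg. They were 49 of the 14492 genes in the table, and comprised 18 integrin alpha chains, 7 integrin beta chains, 12 cadherins, 3 Icam genes with Vcam1, and 4 genes of selectins and their ligand. The remaining 4 fit the symbols without being chains of a classical integrin: Itgb2l, a gene similar to Itgb2, and Itgb1bp1, Itgb1bp2 and Itgb3bp, whose products are named as binding integrin beta tails.

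The Chrna4-labelled group held 3 male C57BL/6J mice given the Chrna4-overexpressing adenovirus through the tail vein, and the vehicle group held 3 male C57BL/6J mice labelled as injected with vehicle. Mice of both groups were 8 weeks old at injection and ate a high-fat diet from then on for 2 weeks. Polyadenylated RNA of each liver was read as 150 bp pairs. The labels do not name the promoter of the vector, and 1 of them speaks of adenovirus for the mice in general, which leaves unstated if the vehicle contained an empty virus.

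As background, an integrin is a pair of 1 alpha and 1 beta chain that spans the cell membrane and ties the matrix, or a protein on another cell, to the actin cytoskeleton. White blood cells carry the beta 2 integrins, which bind ICAM proteins on endothelium, and alpha 4 integrins, which bind VCAM1; selectins and their ligand start the contact by letting cells roll along the vessel wall. Cadherins join like cells to each other through catenins, and hepatocytes carry both E-cadherin (Cdh1) and N-cadherin (Cdh2). In the liver, sinusoidal endothelium, Kupffer cells and stellate cells carry most of the ICAM, VCAM and matrix-binding molecules.

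Reads recovered from the table numbered 14959338 to 17023536 in Chrna4-labelled libraries and 15191611 to 22440334 in vehicle libraries, and a level is the number of reads in each 1000000 of a library's scaled total (CPM). Chrna4 had 3.70, 2.17 and 3.82 CPM in the libraries labelled with it, against 1.70, 4.99 and 3.38 CPM in vehicle libraries (log2 fold change 0.0069, limma adjusted p = 0.993), so the gene did not bear out the labels; no source used here says if reads from the vector count toward the mouse gene. Markers of hepatocytes were abundant in every library, with a sum over 8 genes, led by Alb and Apoa1, of 72258 to 78596 CPM in Chrna4-labelled and 91816 to 92436 CPM in vehicle livers. Vehicle replicate 1 was low in leukocyte genes beside both other vehicle libraries: its 8 pan-leukocyte markers summed to 135 CPM against 223 and 211 CPM in vehicle replicates 2 and 3. Fold changes without that library are therefore given for the called genes described.

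Most adhesion genes that changed were higher in the Chrna4-labelled livers. Of the 49 genes, 34 had a mean of at least 1 CPM over the 6 libraries and were tested; 16 rose and 2 fell at an adjusted p under 0.05 (limma on log2(value + 1), adjusted over all 12099 genes tested), and 16 did not pass. Among all genes tested, 14.2% were called higher and 10.3% lower, whereas 47.1% of the tested adhesion genes were called higher and 5.88% lower. The median log2 fold change of the 34 was 0.55, against -0.0067 over all genes tested. Of the 16 higher genes, 9 rose at least 2-fold on this scale, and the share of all tested genes that did so was 6.38%. In bulk tissue, fewer cells of a type and less RNA per cell cannot be told apart, so a rise can mean more cells that carry a gene or more of its RNA in each.

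These counts held across tests but leaned on the number of Chrna4-labelled libraries. The quasi-likelihood test of edgeR and DESeq2, both on the recovered reads, called 16 of the 34 higher and 2 lower as well. Over all 12099 genes tested, edgeR called 1645 higher and 1241 lower, and DESeq2 called 1688 higher and 1524 lower. Without Chrna4-labelled replicate 1, 2 or 3, 9 genes were higher and 1 was lower each time. Calls over all genes tested dropped too, from 1721 higher to 1159, 946 and 1081, and from 1241 lower to 707, 496 and 615. The 8 calls lost among the adhesion genes were the same in each case and included those of Vcam1, Itga6, Itga9, Itgav, Itgb3, Itga7 and Cdh1. Without vehicle replicate 1 there were again 16 higher and 2 lower genes, with Cdh2 called lower in place of Itga7, against a background of 15.8% and 11.7% of all genes tested, and the median log2 fold change of the 16 higher genes was 0.90 in place of 1.11. With plain library totals in place of the authors' scaling, which moved the median of all genes by 0.31 to 0.30, 21 of the adhesion genes were higher and 1 lower, against 37.3% and 2.82% of all genes tested.

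**Figure D1:**
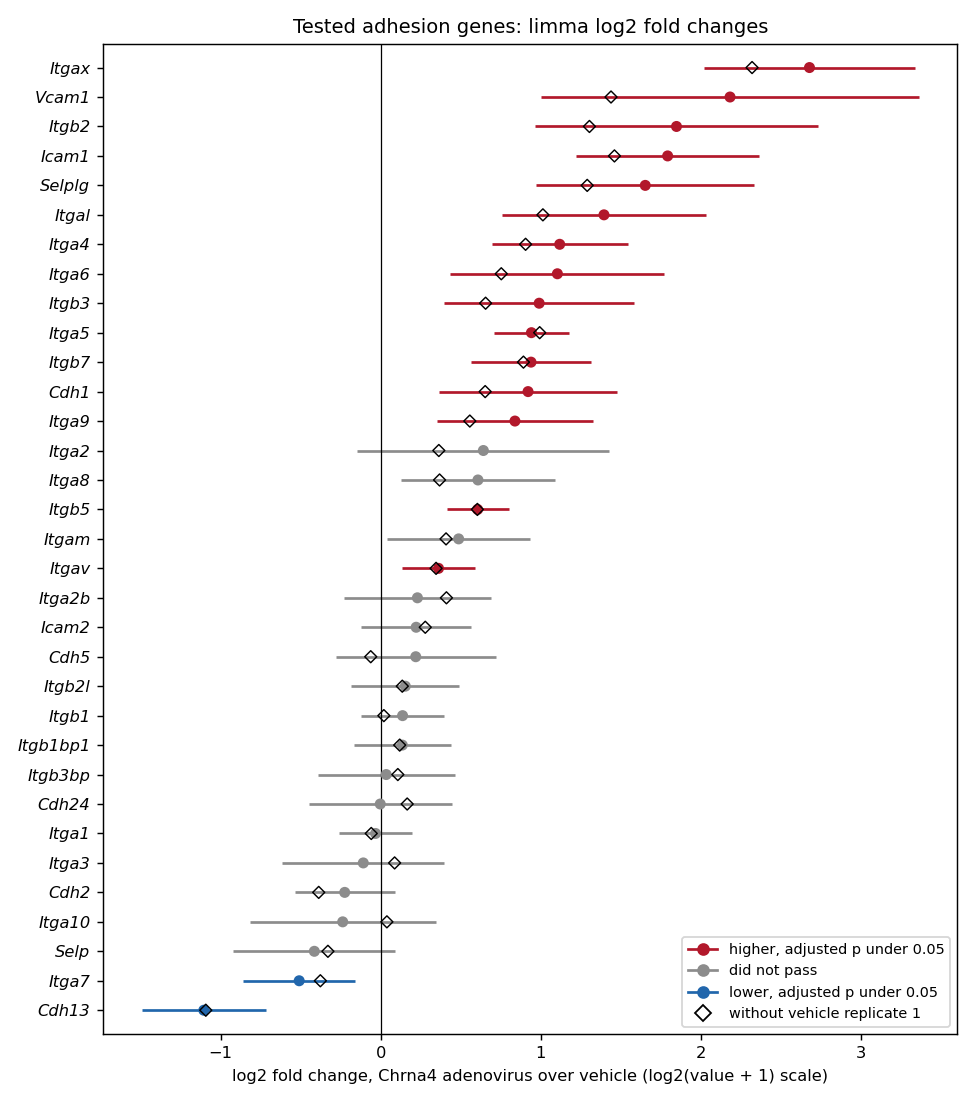
Log2 fold change (Chrna4-labelled over vehicle, log2(value + 1) scale) of tested adhesion genes, with the 95% interval from limma as a line; filled points use all 6 libraries and open diamonds leave out vehicle replicate 1. Genes in red passed as higher, from Itgav at 0.36 to Itgax at 2.68, and the 2 in blue, Itga7 and Cdh13, as lower; most of the larger rises were smaller without vehicle replicate 1.

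The immunoglobulin-like ligands that endothelium offers to leukocyte integrins did not move alike. Icam1, the ligand of the beta 2 integrins (ENSMUSG00000037405, chromosome 9, 21015985 to 21028817, plus strand, GRCm38), had 34.2, 35.3 and 32.0 CPM in Chrna4-labelled livers, against 5.32, 11.6 and 11.7 CPM in vehicle livers. The Chrna4-labelled values were close together and well above the highest vehicle value, and vehicle replicate 1 was the lowest of all 6. It rose by 1.79 ± 0.25 on the log2 scale (± standard error; limma, adjusted p = 0.00231), and by 1.46 without vehicle replicate 1. Of its exonic bases, 11.7% are shared with Gm47079 on the opposite strand, and how strand was handled in counting is not known here. Vcam1, the ligand of alpha 4 integrins, which activated endothelium and Kupffer cells carry (ENSMUSG00000027962, chromosome 3, 116109949 to 116129688, minus strand), had 152, 148 and 148 CPM in Chrna4-labelled livers, against 10.8, 53.1 and 55.8 CPM in vehicle livers. Its groups lay apart too, and the vehicle values were spread widely, with replicate 1 far below the other two.

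Vcam1 rose by 2.18 ± 0.52 on the log2 scale (limma, adjusted p = 0.0173). Without vehicle replicate 1 it was 1.44 with a lower adjusted p of 2.54e-05 (limma), and without Chrna4-labelled replicate 1, 2 and 3 it no longer passed, with adjusted p = 0.0631, 0.0609 and 0.0576; over all alternatives the adjusted p ran from 2.54e-05 to 0.0631. Icam2, which resting endothelium carries, did not pass, with 4.28, 4.08 and 4.87 CPM in Chrna4-labelled livers and 4.01, 3.11 and 3.82 CPM in vehicle livers (log2 fold change 0.22, 95% interval -0.12 to 0.57). Its groups did not overlap, but the gap was small. Icam5, known from neurons, was below the level tested, at 25 reads in all.

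The promoters of Icam1 and Sele are shown because both genes were higher in the Chrna4-labelled livers and both are textbook targets of the inflammatory transcription factor NF-kB. They are the RefSeq windows (GRCm38.p6) from 250 bases before to 50 after the start of the gene, at chr9:21015690-21015989 and chr1:164047984-164048283, both on the plus strand, with matches to the core motif GGAANNNCC on either strand in capitals.
Icam1: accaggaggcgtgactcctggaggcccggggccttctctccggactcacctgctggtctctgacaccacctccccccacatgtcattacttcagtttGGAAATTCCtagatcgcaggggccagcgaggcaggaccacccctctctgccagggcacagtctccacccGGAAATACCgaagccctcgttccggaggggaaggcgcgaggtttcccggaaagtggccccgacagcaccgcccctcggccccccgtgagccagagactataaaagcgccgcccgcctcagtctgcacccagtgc
Sele: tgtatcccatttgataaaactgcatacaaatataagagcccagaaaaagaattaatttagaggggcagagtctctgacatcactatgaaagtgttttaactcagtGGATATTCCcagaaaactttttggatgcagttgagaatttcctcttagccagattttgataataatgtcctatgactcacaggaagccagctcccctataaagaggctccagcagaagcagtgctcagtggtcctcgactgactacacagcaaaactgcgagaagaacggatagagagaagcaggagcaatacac
Icam1 held 2 matches and Sele held 1, and these do not overlap matches to the other motif searched, GAGGAA. The motif is common: 18.5% of all 32851 promoter windows and 8 of the 30 windows of adhesion genes (29 genes with an entry) hold it, so a match describes the sequence and is no evidence of binding.

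The selectin ligand gene Selplg rose, and the P-selectin gene Selp did not pass. Selplg, the ligand that leukocytes offer to selectins (ENSMUSG00000048163, chromosome 5, 113818536 to 113832644, minus strand), had 15.8, 19.6 and 18.4 CPM in Chrna4-labelled livers, against 2.62, 8.26 and 5.41 CPM in vehicle livers. The groups lay well apart, and the rise was 1.65 ± 0.30 on the log2 scale (limma, adjusted p = 0.00608; 1.29 without vehicle replicate 1).

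Selp, the P-selectin gene of platelets and endothelium, did not pass, with 0.763, 1.22 and 1.96 CPM in Chrna4-labelled livers and 2.39, 1.66 and 2.04 CPM in vehicle livers (log2 fold change -0.41, 95% interval -0.92 to 0.09). Its groups overlapped. Sele, the E-selectin gene that endothelium makes only on activation, was too low for the main test, with 10, 10 and 12 reads in Chrna4-labelled livers and 0, 0 and 1 read in vehicle livers. Every Chrna4-labelled library thus held more reads of it than any vehicle library. Scaled to the libraries, the summed reads stood in a ratio of 30.2 (exact 95% interval 5.05 to 1230.3, which covers counting error only). In edgeR's quasi-likelihood test on the reads of all 14492 genes, an alternative added after the data were seen, Sele was called higher (log2 fold change 4.49, adjusted p = 0.00549). That test called 12.6% of all genes higher and 8.48% lower.

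The beta 2 integrins, which are found on white blood cells, held the gene with the largest rise among the 34 tested. Itgax, the alpha X chain of dendritic cells and some macrophages (ENSMUSG00000030789, chromosome 7, 128129547 to 128150657, plus strand), had 19.9, 25.6 and 20.1 CPM in Chrna4-labelled livers, against 1.16, 4.08 and 3.08 CPM in vehicle livers. No Chrna4-labelled value came near a vehicle value. It rose by 2.68 ± 0.29 on the log2 scale (limma, adjusted p = 0.000944), the 15th highest of the 12099 genes tested. Without vehicle replicate 1 it was 2.32, and the call held under every alternative run (adjusted p at most 0.00874).

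Itgb2, the beta chain that all 4 of these alpha chains share (ENSMUSG00000000290, chromosome 10, 77530252 to 77565708, plus strand), had 50.4, 62.1 and 55.2 CPM in Chrna4-labelled livers, against 6.40, 22.3 and 21.6 CPM in vehicle livers. Itgal, the alpha L chain found on nearly all leukocytes (ENSMUSG00000030830, chromosome 7, 127296260 to 127335138, plus strand), had 51.1, 55.5 and 59.2 CPM in Chrna4-labelled livers, against 11.6, 26.2 and 27.4 CPM in vehicle livers. In both genes the groups lay apart and vehicle replicate 1 was the lowest library by a wide gap. Itgb2 rose by 1.85 ± 0.39 (limma, adjusted p = 0.0111), and Itgal by 1.40 ± 0.28 (adjusted p = 0.00914); without vehicle replicate 1 the rises were 1.30 and 1.01.

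The other 2 alpha chains of this family were low. Itgam, the alpha M chain of monocytes, macrophages and neutrophils, had 1.58, 1.32 and 1.32 CPM in Chrna4-labelled livers, against 0.540, 0.536 and 1.14 CPM in vehicle livers, from 7 to 27 reads a library. Its groups did not overlap, but it did not pass the test (log2 fold change 0.49, 95% interval 0.04 to 0.93, limma adjusted p = 0.108). In GENCODE M21, 68.7% of the exonic bases of Itgam are shared with Gm49368 on the same strand; how reads that match both genes were counted is not given, so the level of Itgam is uncertain. Itgad, the alpha D chain, had 1, 4 and 4 reads in Chrna4-labelled and 0, 3 and 3 reads in vehicle livers and was not tested. The ratio of Itgax to Itgal, which does not depend on the scaling of libraries, was 0.390, 0.462 and 0.340 in Chrna4-labelled livers, against 0.10, 0.155 and 0.112 in vehicle livers, so the 2 chains did not rise by the same factor.

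**Figure D2:**
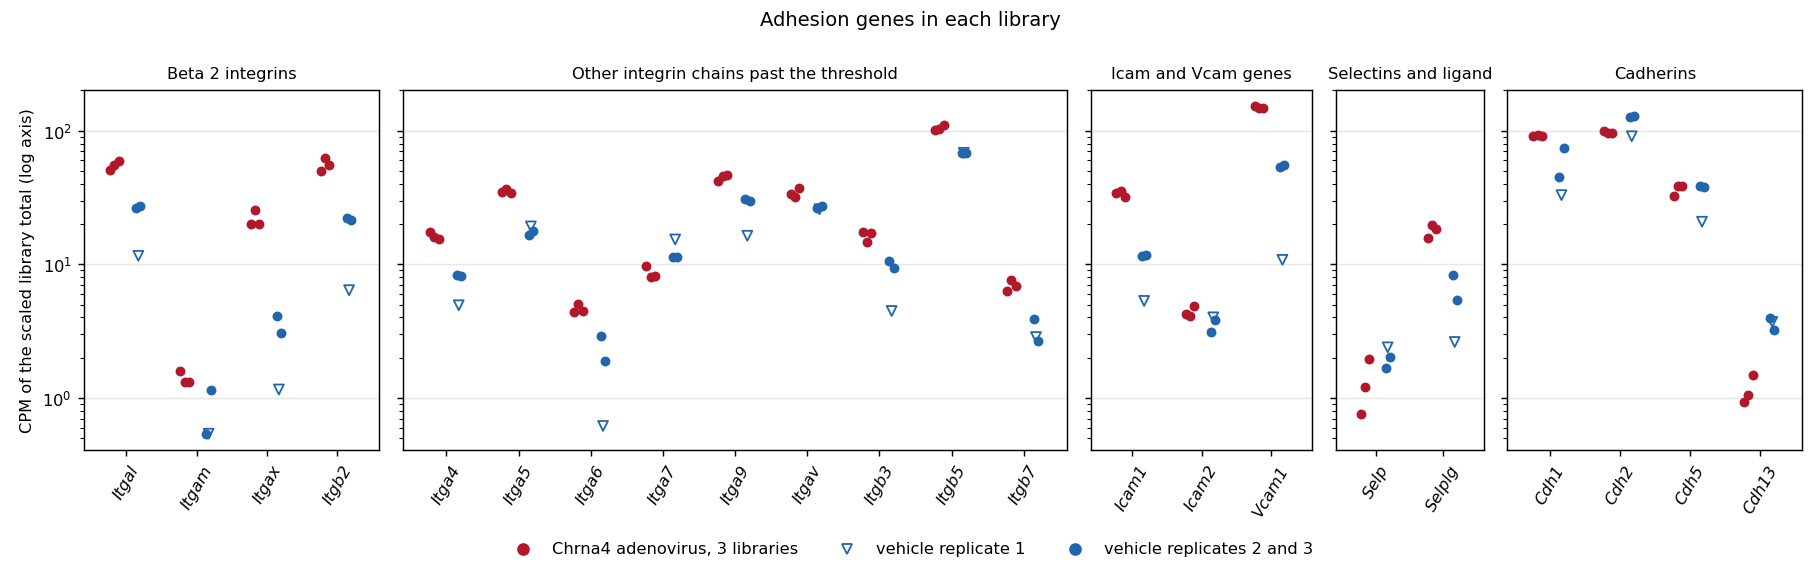
Level of adhesion genes in CPM of the scaled library total (log axis) in each library, with Chrna4-labelled libraries as red points, vehicle replicate 1 as an open triangle and vehicle replicates 2 and 3 as blue points. The groups lie apart in Itgax, Itgal, Itgb2, Icam1, Vcam1 and Selplg, where vehicle replicate 1 is the lowest library, whereas Cdh2, Cdh5 and Selp overlap.

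Itgax and Itgam lie close together on chromosome 7, and their promoters are shown because Itgax had the largest rise among the 34 tested genes while Itgam did not pass. The windows are chr7:128129300-128129599 and chr7:128062390-128062689, both on the plus strand in GRCm38.p6, with matches to GAGGAA, the core of sites of the myeloid transcription factor PU.1, in capitals on either strand.
Itgax: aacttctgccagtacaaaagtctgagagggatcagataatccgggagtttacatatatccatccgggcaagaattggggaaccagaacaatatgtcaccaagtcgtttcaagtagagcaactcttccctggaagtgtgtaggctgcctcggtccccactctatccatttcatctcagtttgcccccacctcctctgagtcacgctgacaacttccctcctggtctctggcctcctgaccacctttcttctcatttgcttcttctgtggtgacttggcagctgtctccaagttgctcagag
Itgam: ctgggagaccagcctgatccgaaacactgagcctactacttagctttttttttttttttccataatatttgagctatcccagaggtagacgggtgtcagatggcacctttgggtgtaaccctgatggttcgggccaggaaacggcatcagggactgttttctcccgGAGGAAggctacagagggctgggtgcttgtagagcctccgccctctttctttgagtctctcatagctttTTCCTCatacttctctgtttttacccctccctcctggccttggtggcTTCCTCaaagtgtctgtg
Itgam held 3 matches and Itgax held none within these 300 bases, which says nothing of PU.1 elsewhere in the gene. The motif is in 28.3% of all promoter windows and in 13 of the 30 windows of adhesion genes, among them Sele with 1 match.

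Alpha 4, beta 7 and alpha 9, chains that serve leukocyte traffic or share ligands with it, rose as well. Itga4, the chain that binds VCAM1 on endothelium, had 17.4, 16.1 and 15.5 CPM in Chrna4-labelled livers, against 4.94, 8.26 and 8.24 CPM in vehicle livers. Itgb7, its partner on lymphocytes that home to the gut, had 6.28, 7.57 and 6.89 CPM in Chrna4-labelled livers, against 2.85, 3.92 and 2.68 CPM in vehicle livers. Both pairs of groups lay apart, with log2 fold changes of 1.12 (standard error 0.19, limma adjusted p = 0.00446) for Itga4 and 0.94 (standard error 0.16, adjusted p = 0.00526) for Itgb7. Itga4 shares 8.04% of its exonic bases with Cerkl on the opposite strand, and it rose by 0.91 without vehicle replicate 1. Vehicle replicate 1 was not the lowest library for Itgb7, whereas it was for 14 of the 16 genes called higher, and the rise of Itgb7 without that library was 0.89.

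Itga9, whose product binds tenascin and VCAM1, had 42.4, 45.6 and 46.8 CPM in Chrna4-labelled livers, against 16.4, 30.6 and 29.8 CPM in vehicle livers. It rose by 0.84 (limma, adjusted p = 0.0231), by 0.56 without vehicle replicate 1, and lost its call without each Chrna4-labelled replicate (adjusted p = 0.0648, 0.0815 and 0.0796). Itgae, the alpha E chain of T cells resident in epithelia, is the other partner of beta 7 and was too low to test, with 8, 10 and 14 reads in Chrna4-labelled and 5, 9 and 10 reads in vehicle livers.

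Among chains that bind the arginine-glycine-aspartate motif of fibronectin and vitronectin, 2 of 4 alpha chains rose. Itga5, the alpha chain of the main fibronectin receptor (ENSMUSG00000000555, chromosome 15, 103344286 to 103366763, minus strand), had 34.5, 36.6 and 34.4 CPM in Chrna4-labelled livers, against 19.2, 16.5 and 17.8 CPM in vehicle livers. The spread within each group was far smaller than the gap between them, and vehicle replicate 1 was the highest vehicle library. It rose by 0.94 ± 0.10 on the log2 scale (limma, adjusted p = 0.000968), and by 0.99 without vehicle replicate 1; no alternative run ended the call. Itgav, the chain of the vitronectin receptors that also release TGF-beta from its latent form, had 33.7, 31.9 and 37.3 CPM in Chrna4-labelled livers, against 25.8, 26.3 and 27.2 CPM in vehicle livers, a rise of 0.36 (limma, adjusted p = 0.0325), or 0.35 without vehicle replicate 1. Its call was lost without each Chrna4-labelled replicate (adjusted p = 0.0801, 0.0724 and 0.133) and without vehicle replicate 2 and 3 (0.0811 and 0.0518).

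Itga8, a chain of stellate cells and other contractile cells, had 7.69, 7.04 and 8.37 CPM in Chrna4-labelled livers, against 3.09, 5.90 and 5.56 CPM in vehicle livers. Its groups lay apart but it did not pass (log2 fold change 0.61, 95% interval 0.13 to 1.09, limma adjusted p = 0.0688). Itga2b, the platelet chain, did not pass either, with 3.49 to 4.99 CPM in Chrna4-labelled and 2.84 to 4.63 CPM in vehicle livers (0.23, 95% interval -0.23 to 0.69).

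The collagen-binding alpha chains gave no call. Itga1, which sinusoidal endothelium and stellate cells carry, was the most abundant of them and had 33.5, 32.2 and 34 CPM in Chrna4-labelled livers, against 32.7, 37.3 and 32.2 CPM in vehicle livers. The groups overlapped fully, with a log2 fold change of -0.03 (95% interval -0.26 to 0.20, limma adjusted p = 0.853). Itga2 was spread widely in both groups, from 0.901 to 2.58 CPM in Chrna4-labelled and from 0.0772 to 1.49 CPM in vehicle livers (0.64, 95% interval -0.15 to 1.43). Itga10 had 3.05 to 3.76 CPM in Chrna4-labelled and 2.68 to 6.71 CPM in vehicle livers (-0.24, 95% interval -0.82 to 0.34), and it shares 33.5% of its exonic bases with Gm42957 on the same strand. Itga11, a chain of fibroblasts that make collagen, was below the level tested at 22 reads in all. Genes of collagens that these chains bind rose in the same livers (Col1a1 by 3.31 and Col1a2 by 2.52; limma).

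The laminin-binding alpha chains went different ways. Itga6 had 4.4, 5.08 and 4.50 CPM in Chrna4-labelled livers, against 0.617, 2.90 and 1.89 CPM in vehicle livers, a rise of 1.10, or 0.75 without vehicle replicate 1 (limma, adjusted p = 0.0266 with all libraries; 0.0750, 0.0971 and 0.0769 without Chrna4-labelled replicates 1, 2 and 3). Itga7, best known from muscle, had 9.68, 7.99 and 8.11 CPM in Chrna4-labelled livers, against 15.4, 11.4 and 11.4 CPM in vehicle livers. It fell by 0.51 on the log2 scale (limma, adjusted p = 0.0428), its log2 fold change was -0.38 without vehicle replicate 1, and this call was fragile. It was lost with plain library totals (log2 fold change -0.20, adjusted p = 0.284), with no filter on low values (0.0527), and without any library other than vehicle replicate 3 (0.0582 to 0.152). Over all alternatives the adjusted p of Itga7 ran from 0.0236 to 0.284. Itga3 overlapped, with 6.22 to 8.36 CPM in Chrna4-labelled and 5.46 to 10.7 CPM in vehicle livers (log2 fold change -0.11, 95% interval -0.61 to 0.40).

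Of the 5 beta chains tested, 4 rose, and the chain with the highest level did not pass. Itgb1, the partner of most matrix-binding alpha chains and of alpha 4 (ENSMUSG00000025809, chromosome 8, 128685654 to 128733200, plus strand), had 221, 209 and 216 CPM in Chrna4-labelled livers, against 166, 216 and 209 CPM in vehicle livers. Its groups overlapped, and it did not pass (log2 fold change 0.14, 95% interval -0.12 to 0.40, limma adjusted p = 0.433); with plain library totals it was called higher at 0.47 (adjusted p = 0.0226), and its other alternatives gave an adjusted p of up to 0.884. Itgb5, a partner of alpha V, had 101, 103 and 111 CPM in Chrna4-labelled livers, against 68.3, 68.5 and 68.4 CPM in vehicle livers. The vehicle values differed by less than 1 CPM, and the gene rose by 0.61 ± 0.08 (limma, adjusted p = 0.00233), or by 0.60 without vehicle replicate 1.

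Itgb3, the partner of alpha V on endothelium and macrophages and of alpha IIb on platelets, had 17.3, 14.7 and 17 CPM in Chrna4-labelled livers, against 4.48, 10.6 and 9.43 CPM in vehicle livers. It rose by 0.99 (limma, adjusted p = 0.0257), by 0.66 without vehicle replicate 1, and lost its call without each Chrna4-labelled replicate (adjusted p = 0.0892, 0.0677 and 0.0847). The ratio of Itgb5 to Itgav was 2.99, 3.22 and 2.97 in Chrna4-labelled and 2.64, 2.61 and 2.52 in vehicle livers, without overlap. Itgb4 and Itgb8, at 57 and 82 reads in all, were below the level tested.

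Within each library, the make-up of the integrin chains differed between groups. Per kilobase of exons, the alpha chains that pair with beta 2 (Itgal, Itgam, Itgax and Itgad) made up 33.3%, 36.2% and 35.0% of the summed level of the 18 alpha chains in Chrna4-labelled livers, against 11%, 22.1% and 22.6% in vehicle livers. Itgax alone made up 11.3%, 13.7% and 10.8% in Chrna4-labelled livers and 1.25%, 3.76% and 2.86% in vehicle livers. These shares do not depend on how libraries are scaled, and neither overlapped between the groups. The share of Itgb2 among the 7 beta chains was 15.8%, 19.2% and 16.8% in Chrna4-labelled livers and 3.27%, 8.83% and 8.82% in vehicle livers. Itgb1 took the larger part in every library, at 51.9%, 48.4% and 49.2% in Chrna4-labelled livers and 63.6%, 63.9% and 63.9% in vehicle livers.

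Itga1, whose own level gave no call, held a smaller share in the Chrna4-labelled livers. It made up 4.90%, 4.45% and 4.72% of the summed alpha level in Chrna4-labelled livers, against 9.14%, 8.89% and 7.72% in vehicle livers. Itga9, which rose, held about the same share in both groups, at 15.0%, 15.2% and 15.7% in Chrna4-labelled and 11.1%, 17.6% and 17.3% in vehicle livers. The summed level per kilobase of the alpha chains was 36.8, 39.0 and 38.7 CPM in Chrna4-labelled livers and 19.2, 22.6 and 22.4 CPM in vehicle livers. A chain of nearly unchanged level takes a smaller share of a higher sum, so the share of Itga1 is no separate result.

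**Figure D3:**
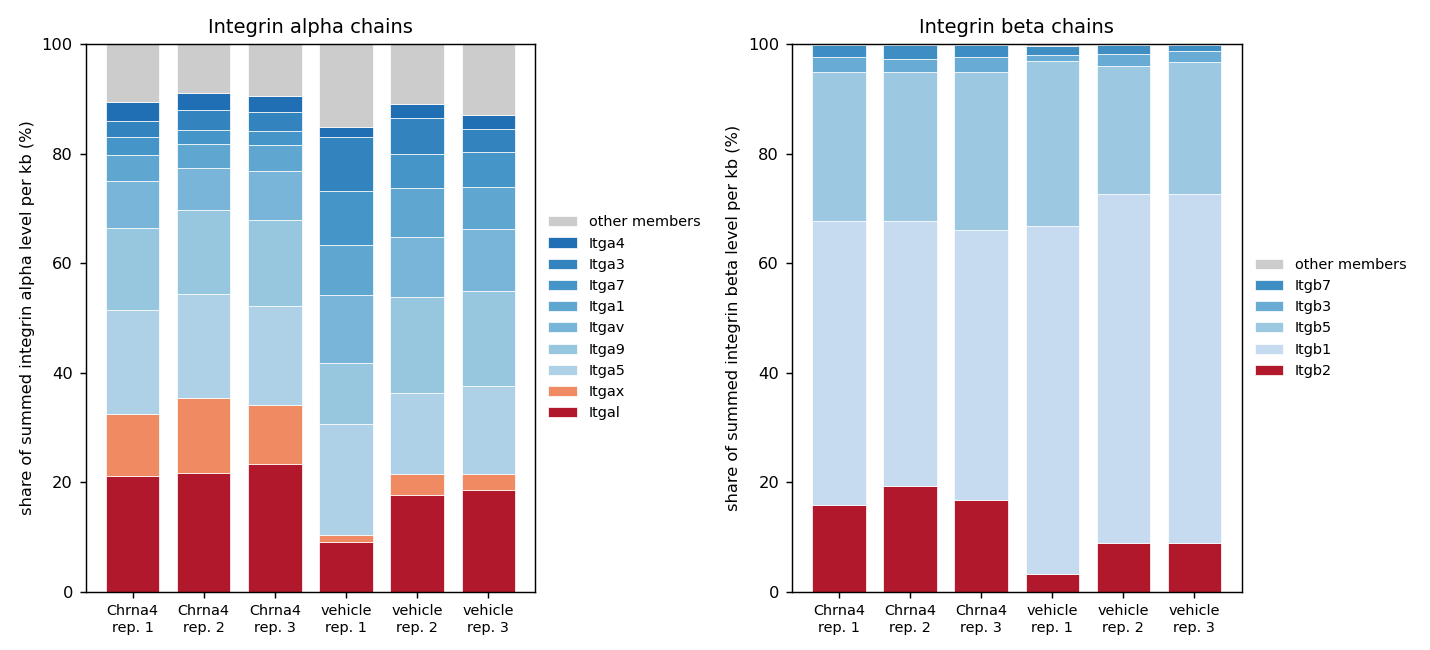
Share of each chain in the summed level per kilobase of the 18 integrin alpha chains (left) and the 7 beta chains (right), in percent, for each library. The red and orange segments, Itgal, Itgax and Itgb2, take a larger share in the 3 Chrna4-labelled libraries than in any vehicle library, and are smallest in vehicle replicate 1.

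Of the cadherins, 5 of 12 were high enough to test, and 1 rose and 1 fell. Cdh1, the E-cadherin gene of hepatocytes and bile duct cells (ENSMUSG00000000303, chromosome 8, 106603351 to 106670246, plus strand), had 91.3, 93.6 and 91.7 CPM in Chrna4-labelled livers, against 32.9, 45.4 and 74.7 CPM in vehicle livers. The Chrna4-labelled values were nearly equal, while the vehicle values were spread widely and vehicle replicate 3 came closest. It rose by 0.92 ± 0.24 (limma, adjusted p = 0.0268), or by 0.65 without vehicle replicate 1; the call was lost without each Chrna4-labelled replicate (0.0825, 0.0889 and 0.0792) and without vehicle replicate 2 (0.0684). Cdh13, T-cadherin, which is anchored in the membrane without a tail for catenins (ENSMUSG00000031841, chromosome 8, 118283733 to 119324921, plus strand), had 0.939, 1.06 and 1.48 CPM in Chrna4-labelled livers, against 3.70, 3.97 and 3.23 CPM in vehicle livers. The groups lay apart, and the level fell by 1.11 ± 0.17 on the log2 scale (limma, adjusted p = 0.00325), with a log2 fold change of -1.09 without vehicle replicate 1; it rests on 16 to 28 reads a library in Chrna4-labelled and 48 to 74 in vehicle livers, and no alternative that tested it ended the call.

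The other cadherins tested gave no call with all libraries. Cdh2, N-cadherin, had 98.8, 96.9 and 96.9 CPM in Chrna4-labelled livers, against 90.9, 127 and 128 CPM in vehicle livers (log2 fold change -0.22, 95% interval -0.54 to 0.09). Without vehicle replicate 1 it was called lower at -0.39 (limma, adjusted p = 0.00705; 0.592 at most over the alternatives), so that 1 library decides its call; with plain library totals its sign turned, at 0.11. The ratio of Cdh1 to Cdh2 was 0.924, 0.966 and 0.947 in Chrna4-labelled livers, against 0.362, 0.357 and 0.582 in vehicle livers, without overlap. Cdh5, VE-cadherin of endothelial junctions, had 32.6, 38.5 and 38.8 CPM in Chrna4-labelled livers and 20.8, 38.5 and 37.9 CPM in vehicle livers (0.22, 95% interval -0.28 to 0.72), and overlapped. Cdh24 had 1.48 to 1.94 CPM in Chrna4-labelled and 1.34 to 2.39 CPM in vehicle livers.

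The remaining genes were low or not integrins. Itgb2l (log2 fold change 0.15), Itgb1bp1 (0.14) and Itgb3bp (0.03) did not pass, each with overlapping groups. The 15 genes under 1 CPM on average had 15 to 82 reads in all over the 6 libraries. Besides Sele, the quasi-likelihood test of edgeR on all genes called none of these 15, and groups did not overlap in Cdh18 and Cdh6, both lower in Chrna4-labelled livers, on 35 and 21 reads. How often groups lay apart among all genes under 1 CPM was not counted, so these gaps have no background to be read against. Over the 34 tested genes, groups did not overlap in 19 higher and 2 lower genes, against 22% and 21% of all genes tested.

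Levels of different genes were compared per kilobase of exons. In Chrna4-labelled livers the highest of the 49 genes were Itgb1 at 52.8, Itgb5 at 29.5, Cdh1 at 20.2, Itgb2 at 18.3 and Vcam1 at 16.8 CPM per kilobase. In vehicle livers they were Itgb1 at 48.3, Itgb5 at 19.3, Cdh2 at 14.3, Cdh1 at 11.2 and Cdh5 at 7.71 CPM per kilobase. Itgb2 and Vcam1, at 5.50 and 4.50, came after these in vehicle livers.

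Genes that work with these molecules were counted from lists chosen with earlier results of these data known, and stand beside the 14.2% of all tested genes called higher and 10.3% called lower (37.3% and 2.82% with plain library totals). Of 28 tested adaptors that tie integrins to actin or switch them on, 8 rose and 2 fell (median log2 fold change 0.10). Parvg and Fermt3, the parvin and kindlin of blood cells, rose by 1.66 and 1.27, while Fermt2, the kindlin of other cells, fell by 0.47 (limma, adjusted p from 0.00603 to 0.00727). The fall of Parva, a broadly expressed parvin named after its value was seen, was 0.29. With plain library totals 17 adaptors were higher and none was lower (limma), so both falls depend on the scaling. Of 22 tested integrin ligands, 14 rose and 1 fell (median 0.85), led by Col1a2 (2.52), Col1a1 (3.31) and Mfge8 (1.40), a bridge between alpha V integrins and dying cells. The ligand that fell was Vwf (-0.87), the von Willebrand factor gene, named after its value was seen; with plain totals 14 were higher and it was not called.

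Of 16 tested genes of leukocyte passage through vessel walls, 7 rose and 1 fell (median 0.39). The enzyme gene Gcnt1, which helps build the sugars that selectins bind, rose by 1.47, the hyaluronan receptor gene Cd44 by 1.44 and the membrane linker gene Ezr by 0.73 (limma, adjusted p from 0.00157 to 0.00533). The 1 that fell, Ninj1 (-0.28), was named after its value was seen and was not called with plain totals, where 11 were higher. Of 14 tested catenins and junction genes, only Dsp, the desmoplakin gene, passed (0.31, limma adjusted p = 0.0432), and the median was 0.01; with plain totals 5 were higher.

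Markers of cell types that carry these molecules were measured beside them. All 8 pan-leukocyte markers rose (limma; 8 without vehicle replicate 1), and their sum, led by Lcp1 and Laptm5, was 368 to 383 CPM in Chrna4-labelled livers and 135 to 223 CPM in vehicle livers, with no marker at 0 in any library. The 8 markers of monocytes, neutrophils and dendritic cells, led by Lyz2 and Csf3r, summed to 151 to 175 CPM in Chrna4-labelled and 45.4 to 100.7 CPM in vehicle livers, and 6 of 6 tested rose. T and NK cell markers, led by Gzma and Cd8a, rose in 5 of 6 tested, with sums over 7 genes of 33.3 to 44.8 CPM in Chrna4-labelled and 6.02 to 15.2 CPM in vehicle livers. Those of B and plasma cells, led by Jchain and Mzb1, rose in 2 of 5 tested, with sums over 6 genes of 27.0 to 42.1 CPM in Chrna4-labelled and 5.16 to 9.76 CPM in vehicle livers. Resident Kupffer cell markers, led by Cd5l and Clec4f, went both ways, with 3 of 8 higher (Cd5l, C1qa and Adgre1) and 2 lower (Cd163 and Timd4), and sums of 827 to 856 CPM in Chrna4-labelled and 272 to 695 CPM in vehicle livers; without vehicle replicate 1, 3 were higher and 5 lower.

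Endothelial markers overlapped between groups: their sum over 9 genes, led by Stab2 and Clec4g, was 281 to 344 CPM in Chrna4-labelled and 271 to 335 CPM in vehicle livers, with 1 higher (Lyve1) and 1 lower (Clec4g); without vehicle replicate 1, 1 was higher and 2 were lower. Stellate cell and fibroblast markers, led by Dcn and Reln, summed over 9 genes to 325 to 343 CPM in Chrna4-labelled and 167 to 187 CPM in vehicle livers, and 5 of 9 rose (7 without vehicle replicate 1). Bile duct markers, led by Spp1 and Sox9, overlapped at 53.7 to 84.2 CPM in Chrna4-labelled and 43.4 to 73.3 CPM in vehicle livers, with 1 of 2 tested higher (Sox9). Platelet markers, led by Pf4 and Ppbp, were near 0, at 2.54 to 3.33 CPM in Chrna4-labelled and 1.5 to 2.55 CPM in vehicle livers over 4 genes, of which Gp9 had no read in vehicle replicate 1 and the 1 tested did not pass. Of the 3 hepatocyte markers that changed, Serpina1c, Apoa2 and Ttr, all were lower. The part of these cell types in the results above was not tested.

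Set against the leukocyte markers of the same library, the leukocyte chains rose unequally. The sum leans on its most abundant marker, Lcp1, at 139, 147 and 143 CPM in Chrna4-labelled and 87.3, 117 and 111 CPM in vehicle livers. Lcp1 rose least of the 8 markers (log2 fold change 0.46, against a median of 1.40), so the sum rose less than most of its markers. Shares of a sum without Lcp1 were not computed, and the gaps below depend on this choice of markers. Itgax stood at 5.41%, 6.69% and 5.28% of the pan-leukocyte sum in Chrna4-labelled livers, against 0.855%, 1.83% and 1.46% in vehicle livers. Itgb2 stood at 13.7%, 16.2% and 14.5% in Chrna4-labelled livers, against 4.73%, 10.01% and 10.2% in vehicle livers. For both, no Chrna4-labelled value overlapped a vehicle value. Itgal, at 13.9% to 15.5% in Chrna4-labelled and 8.55% to 13.0% in vehicle livers, lay apart as well. So did Selplg, at 4.29% to 5.11% in Chrna4-labelled and 1.94% to 3.70% in vehicle livers. Itga4 lay apart by a small gap only, at 4.05% to 4.74% in Chrna4-labelled and 3.65% to 3.91% in vehicle livers. Itgb7 overlapped, at 1.71% to 1.98% in Chrna4-labelled and 1.27% to 2.11% in vehicle livers. On the log2 scale Itgal rose by 1.40, Selplg by 1.65 and Itga4 by 1.12, within the range of 0.46 to 1.72 of the 8 markers (limma). The gaps of Itgal, Selplg and Itga4 therefore do not show a rise beyond that of the leukocyte markers.

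Set against the endothelial markers, Icam1 stood at 12.2%, 10.7% and 9.29% of their sum in Chrna4-labelled livers, against 1.96%, 3.46% and 3.54% in vehicle livers. Vcam1 stood at 54.3%, 44.6% and 43.1% in Chrna4-labelled livers, against 3.98%, 15.8% and 16.9% in vehicle livers. Cdh5 stood at 11.6%, 11.6% and 11.3% in Chrna4-labelled livers, against 7.68%, 11.5% and 11.5% in vehicle livers. The endothelial sum was similar in both groups (281 to 344 CPM in Chrna4-labelled and 271 to 335 CPM in vehicle livers). These percentages therefore largely repeat the contrasts in CPM and are no separate result. On this scale Icam1 and Vcam1 lay apart from vehicle, whereas the values of Cdh5 were close to those of vehicle replicates 2 and 3.

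**Figure D4:**
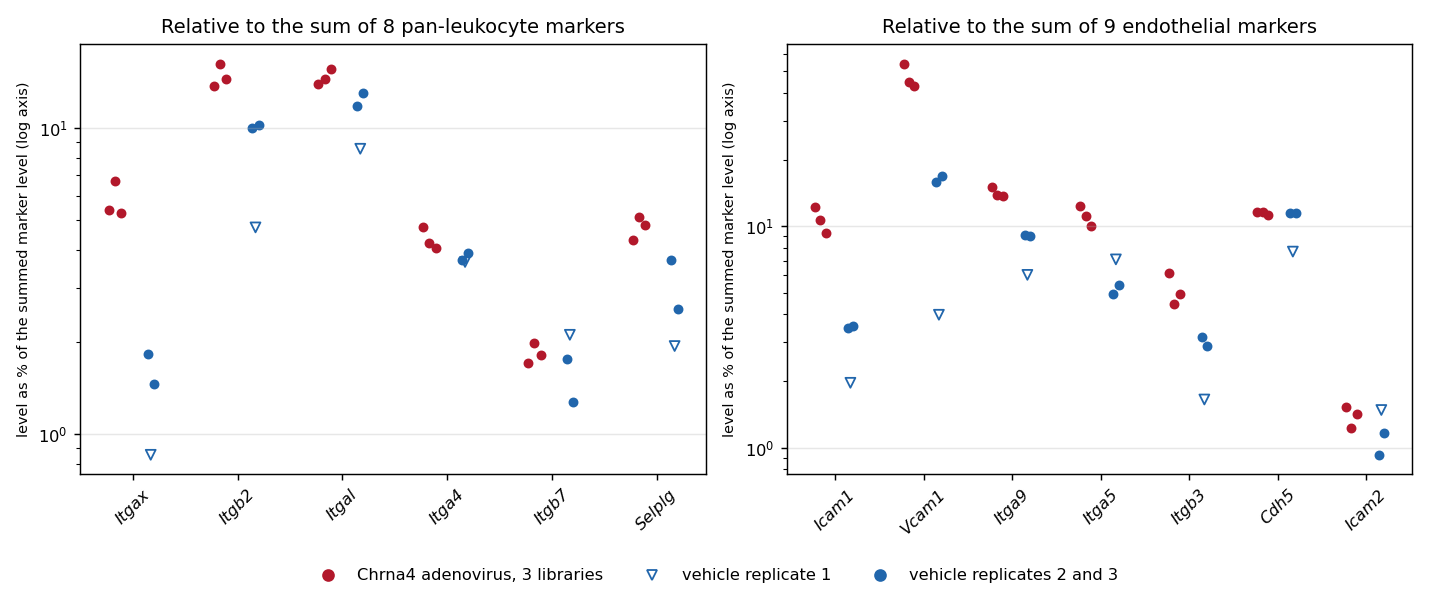
Level of single adhesion genes as a percentage of the summed level of 8 pan-leukocyte markers (left) or 9 endothelial markers (right) in the same library (log axes), with Chrna4-labelled libraries in red, vehicle replicate 1 as an open triangle and vehicle replicates 2 and 3 in blue. Itgax, Itgb2, Icam1 and Vcam1 lie apart between the groups, and Itgb7 and Icam2 overlap.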

How the data were processed

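Poly(A)+ liver RNA of 6 mice was sequenced. The submitters' processing notes name TopHat2, HTSeq, mm10 and GRCm38, with neither version nor role. The deposited table gives a signal per library from which whole reads could be recovered (100% of values within 0.01 of a whole number), so it is CPM of a scaled total, and, per the file headers, the authors' log2 fold change, log2 abundance, p-value and FDR, which were not used here. How strand was handled is not known here.

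Limma 3.58.1 (R 4.3.3; trend) was run on log2(value + 1) for 12099 genes (mean CPM over all libraries 1 or more), Benjamini-Hochberg adjusted, threshold 0.05; fold changes of low genes are understated. The design foresaw edgeR for raw counts. Alternatives were edgeR 4.0.16 and DESeq2 1.42.0 on recovered reads, pseudocounts of 0.5 and 0.1, other filters and scalings, limma without trend, and leaving out each library. Simulated data with known changes were used to test the limma step.

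Genes and lists were chosen with earlier results of these data known. All genes chosen by symbol enter the counts, and 1 of them is not reported here by name; from other lists the 3 genes with the lowest p among those called are named. Coordinates and exon lengths are from GENCODE M21 (GRCm38), which held all 49 genes. Protein features planned for the alpha chains were not analysed. Libraries of a group differed beyond counting noise (chi-square per degree of freedom 10.3 to 65.7) and were kept apart. The labels do not say that replicate numbers pair libraries.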

Additional observations from a re-analysis of the deposited data

How the results depend on the processing

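The count of 16 higher adhesion genes was 14 to 21 under the alternatives that kept all Chrna4-labelled libraries, and fell within a range of 9 to 16 when 1 library was left out. The count of lower genes, 2 with all libraries, was 1 with no filter on low values, with a mean of at least 5 and with plain library totals, and 1 to 2 when 1 library was left out. Both together gave 10 to 18 when 1 library was left out, against 18. Of all genes, 2962 changed, 4852 with plain library totals, and 1442 to 3331 when 1 library was left out. The share of beta 2 partners among integrin alpha chains was 16.2 percentage points higher in Chrna4-labelled livers, 13.7 without division by gene length and 12.4 to 18.3 when 1 library was left out. With edgeR, DESeq2, the size factors of DESeq2, limma without trend and pseudocounts of 0.5 and 0.1, none of the 34 tested genes changed its call, and no call was reversed under any alternative. Plain totals added calls as higher for Icam2, Itga8, Itgam, Itgb1 and Itgb1bp1 and ended that of Itga7. Depth limits the 15 untested genes, of which edgeR called Sele alone. No paired analysis was possible because the labels give each liver its own number and name no pairing. Replicates in the deposited column names only count libraries within a group.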
